A study of Mus musculus with 12 samples.

Results

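The genes described here encode the framework of the basement membrane, the thin sheet of matrix on which an epithelium sits: the collagen IV chains Col4a1 and Col4a2, the nidogens Nid1 and Nid2, the laminin chains Lama1, Lama4, Lama5, Lamb1 and Lamc1, and Hspg2, which encodes perlecan. They were chosen by name, with earlier results of these data known. The probe sets are those of the array that are annotated to exactly 1 of these 10 symbols. That gave 14 of 12422 probe sets, and 10 of the 8251 genes that have a probe set with a single symbol. Lama4, Lama5, Lamb1 and Lamc1 had 2 probe sets each, and the other members had 1. All 14 passed the filter on low values in every comparison.

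The arrays, 12 in number and of the Affymetrix MG_U74Av2 type, hold RNA of structures picked by morphology from kidneys of wild-type Swiss Webster mouse embryos of unknown sex at E14.5, in 4 groups of 3 arrays. Each renal vesicle array (replicates 2, 3 and 4) and each pooled S-shaped body array (replicates 1, 2 and 3) came from a pool of 20 structures, whereas each single S-shaped body array (replicates 3, 4 and 5) and each collecting duct array (replicates 1, 2 and 3) came from 1 unpooled sample. All RNA was amplified in 2 rounds before hybridization, and per the labels stains and RT-PCR were used to check that the dissected structures were what they were taken for. Nothing in the labels ties samples to embryos, so a p-value here reflects spread among arrays that may be technical, and 3 arrays per group limit the precision of every value.

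The renal vesicle is the first epithelial ball of the nephron, formed from mesenchyme, and the S-shaped body is the later stage in which the glomerulus and tubule are laid out and capillaries enter the cleft. The collecting duct grows from the ureteric bud, a separate epithelium. Laminin trimers of an alpha, a beta and a gamma chain make one network of the basement membrane, collagen IV makes a second, and nidogens and perlecan bind both. In kidney development the alpha chain is known to differ between stages, with Lama1 early and Lama5 in the mature glomerular membrane, and Lama4 is known from the membranes of small vessels and from mesenchyme.

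Col4a1 and Col4a2, whose products form the trimer of the collagen IV found in nearly all basement membranes, are encoded head to head on opposite strands of mouse chromosome 8. Their promoter windows, from 250 bases before to 50 bases after the annotated start, are shown because they overlap and because the pair is compared below. The sequences are from RefSeq, build GRCm38.p6, for chr8:11312777-11313076 on the minus strand (Col4a1) and chr8:11312555-11312854 on the plus strand (Col4a2), each 5′ to 3′ on its own strand. Capitals mark the 78 bases that both windows hold, chr8:11312777-11312854.
Col4a1: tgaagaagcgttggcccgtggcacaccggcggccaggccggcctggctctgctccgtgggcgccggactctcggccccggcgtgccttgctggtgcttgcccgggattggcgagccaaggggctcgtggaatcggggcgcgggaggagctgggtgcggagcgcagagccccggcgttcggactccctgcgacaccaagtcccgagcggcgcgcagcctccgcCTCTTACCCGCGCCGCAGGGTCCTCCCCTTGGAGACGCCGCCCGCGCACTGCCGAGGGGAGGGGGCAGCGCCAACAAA
Col4a2: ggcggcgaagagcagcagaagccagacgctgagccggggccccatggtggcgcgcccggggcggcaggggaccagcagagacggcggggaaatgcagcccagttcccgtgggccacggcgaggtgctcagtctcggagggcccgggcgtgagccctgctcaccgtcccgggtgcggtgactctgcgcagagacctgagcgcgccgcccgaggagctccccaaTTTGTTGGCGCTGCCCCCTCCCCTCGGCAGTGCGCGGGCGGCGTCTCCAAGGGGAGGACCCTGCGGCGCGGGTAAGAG
RefSeq's promoter table held 6 of the 10 members (Col4a1, Col4a2, Nid1, Lama5, Lamb1 and Hspg2). The letters CCAAT, on either strand, were in 4 of these 6 windows (Col4a1, Col4a2, Nid1 and Lamb1) and in 37.4% of all 32851 promoter windows. GGGCGG was in 6 of 6, against 35.7% of all windows, and TATAAA in 0 of 6, against 13.6%. Within a window no match overlapped another. The 1 GGGCGG of Col4a1 lies in the 78 shared bases and is the same site as 1 of the 3 in Col4a2. The count of 6 windows thus holds that site in both. A match is a description of the letters, not a binding site.

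Some properties of the arrays bear on all the values. Mean deposited intensity was 108 to 131 in renal vesicles, 203 to 239 in pooled S-shaped bodies, 21.4 to 70.6 in single S-shaped bodies and 273 to 363 in collecting duct, so the arrays were quantile normalized and values are given as log2 of the normalized signal plus a pseudocount of 7.22. A level of 2.85 on this scale is a signal of 0. The 3′ beta-actin control divided by the one from the middle of the transcript gave 7.89 to 9.02 in renal vesicles, 3.22 to 3.92 in pooled S-shaped bodies, 7.55 to 10.4 in single S-shaped bodies and 6.29 to 10.4 in collecting duct; its part in the results was not tested. The summed signal of 11 ureteric markers was 228 to 792 in renal vesicles, 654 to 1118 in pooled S-shaped bodies and 489 to 1669 in single S-shaped bodies, against 10512 to 11559 in collecting duct, and that of 9 early nephron markers was 1824 to 2101 in renal vesicles, 896 to 968 in pooled and 818 to 1321 in single S-shaped bodies, against 99.9 to 166 in collecting duct. Renal vesicle replicate 3 had the highest endothelial, stromal, podocyte and ureteric marker sums of its group, and results that rest on it are given without it.

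Against collecting duct, most of the framework genes were higher in the nephron structures, and of the leading probe sets only that of Lama5, in renal vesicles, was lower. A gene was called when its adjusted p in limma's moderated test, over all 9316 probe sets tested, was under 0.05, and where a gene has 2 probe sets the one with the higher mean stands for it. In renal vesicles 7 of the 10 genes were higher than in collecting duct (Col4a1, Col4a2, Nid1, Nid2, Lama1, Lama4 and Lamc1), 1 was lower (Lama5) and 2 did not pass (Lamb1 and Hspg2), where 23.8% of all probe sets were called, 12.2% higher and 11.5% lower. Pooled S-shaped bodies had 8 genes higher than collecting duct, the same 7 and Hspg2, with 0 lower and 2 not passing, where 38.5% of all probe sets were called, 18.4% higher and 20.1% lower. Single S-shaped bodies had 8 higher, without Lama1 but with Lamb1 and Hspg2, where 33.6% were called, 15.9% higher and 17.7% lower. These comparisons share the collecting duct arrays. The members were chosen with earlier results of these data known, so the counts here and below are a description. Between the 2 groups, arrays were fully apart for 9 of the 10 genes in renal vesicles, 9 in pooled and 8 in single S-shaped bodies against collecting duct, where this held for 39.5%, 52.3% and 48.4% of all probe sets in the same order. The median log2 change over the 10 genes was 2.06 in renal vesicles, 2.32 in pooled and 2.58 in single S-shaped bodies, beside -0.02, -0.07 and -0.06 over all probe sets tested in the same order. Fewer cells of a type and less RNA per cell cannot be told apart in such whole structures, and neither can the structure and its unpooled input for the collecting duct.

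Between the nephron stages the genes split. In pooled S-shaped bodies 6 of the 10 genes were higher than in renal vesicles (Col4a1, Col4a2, Nid1, Nid2, Lama5 and Hspg2), 3 were lower (Lama1, Lama4 and Lamb1) and Lamc1 did not pass, where 36.7% of all probe sets were called, 17.6% higher and 19.2% lower. Arrays of both stages were fully apart for 8 of the 10, where this held for 47.4% of all probe sets. The median log2 change of the 10 was 0.63, beside -0.03 over all probe sets. Without renal vesicle replicate 3, 9 member probe sets were called in place of 11, and the 2 lost were those of Nid2 (log2 change 0.57, adjusted p = 0.101) and Hspg2 (0.85, adjusted p = 0.0683). Without pooled S-shaped body replicate 1, or without replicate 2, 7 were called.

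**Figure D1:**
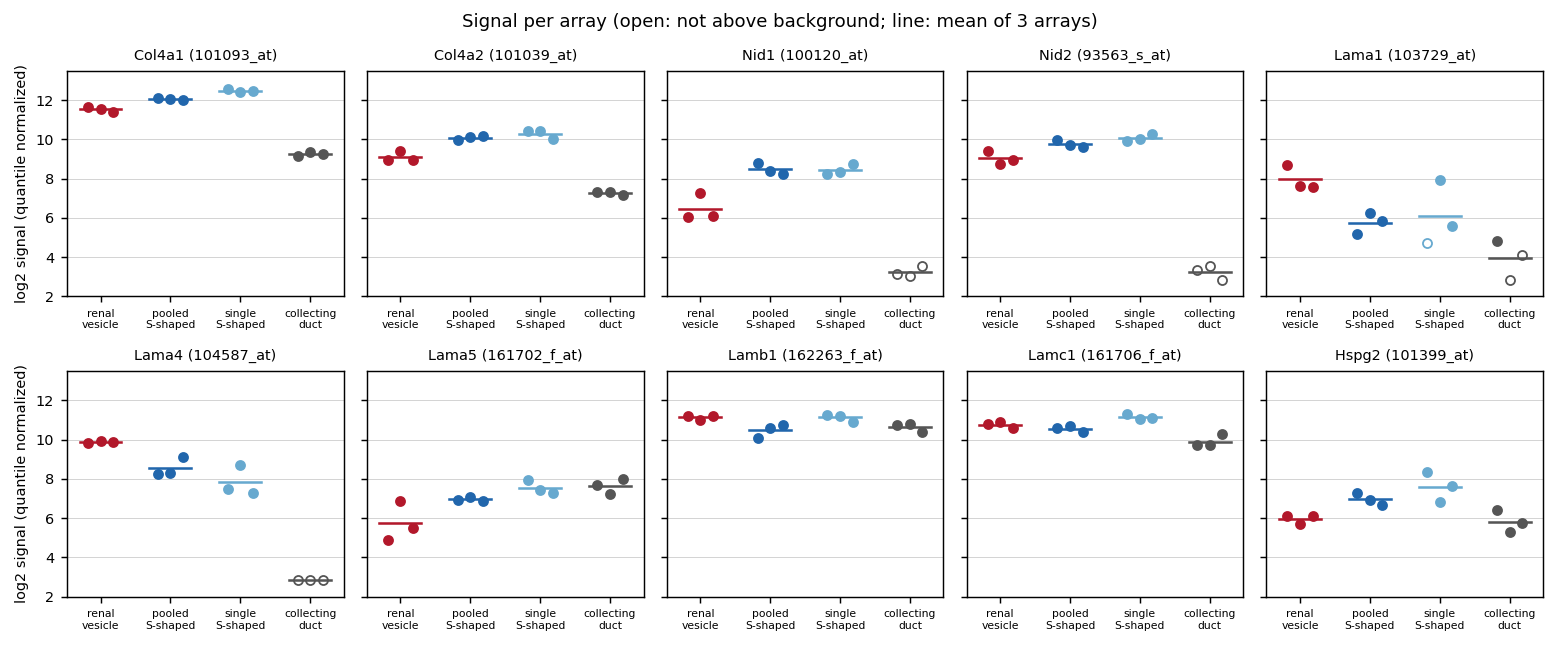
Log2 normalized signal of each of the 10 genes on every array (vertical axis), for vesicles, pooled and single S-shaped bodies and collecting duct from left to right, with the line at the mean of 3 arrays and open points where the signal was not above background. Col4a1, Col4a2, Nid1, Nid2 and Lama4 sit far above collecting duct in each nephron group, and Lama5 sits lowest in renal vesicles.

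Both collagen IV genes were higher in every nephron group than in collecting duct and in pooled S-shaped bodies than in renal vesicles. Col4a1 read 11.63, 11.54 and 11.39 for renal vesicles, 12.09, 12.06 and 12.02 for pooled S-shaped bodies, 12.54, 12.42 and 12.46 for single S-shaped bodies and 9.14, 9.33 and 9.25 for collecting duct. No 2 groups overlapped, and the order ran from collecting duct through renal vesicles and pooled S-shaped bodies to single S-shaped bodies. The log2 change against collecting duct was 2.28 ± 0.10 in renal vesicles (SE, adjusted p = 1.31e-07), a 4.86-fold difference, and 2.82 ± 0.10 in pooled S-shaped bodies (adjusted p = 2.6e-08), a 7.04-fold difference. In single S-shaped bodies it was 3.23 ± 0.11 (adjusted p = 1.21e-06), a 9.41-fold difference, and 4.44 with scaling to the 75th percentile.

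Pooled S-shaped bodies exceeded renal vesicles in Col4a1 by 0.53 ± 0.10 (adjusted p = 0.00165). That difference was 0.07 (adjusted p = 0.7) when the arrays were scaled to their 75th percentile in place of quantile normalization, so the size of the Col4a1 differences depends on the scaling. Its probe set lay at the 99.7 percentile of mean signal on the array. Single S-shaped bodies read 0.42 ± 0.09 above pooled ones without passing the test over all probe sets (adjusted p = 0.0832, 95% interval 0.22 to 0.62), and this difference was 1.70 (adjusted p = 0.00623) with scaling to the 75th percentile.

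Col4a2 had the same order as Col4a1 at a wider spread. It read 8.94, 9.41 and 8.93 for renal vesicles, 9.95, 10.14 and 10.18 for pooled S-shaped bodies, 10.41, 10.43 and 10.01 for single S-shaped bodies and 7.34, 7.30 and 7.14 for collecting duct. Only the pooled and single S-shaped bodies overlapped. Against collecting duct it was 3.56-fold higher in renal vesicles (log2 change 1.83 ± 0.16, adjusted p = 1.3e-05) and 7.09-fold higher in pooled S-shaped bodies (2.83 ± 0.16, adjusted p = 3.59e-07). The stage difference was 0.99 ± 0.16, or 1.99-fold higher in pooled S-shaped bodies than in renal vesicles (adjusted p = 0.000656), and Col4a2 kept this call in 19 of 19 alternative settings.

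The nidogens, which link the laminin and collagen IV networks, were measurable in the nephron structures and not above background in collecting duct. Above background means a deposited signal larger than the size of that array's 5th percentile, which is negative, and where the dim group never does so a bound is given in place of a fold. Nid1 read 6.03, 7.26 and 6.09 for renal vesicles, 8.80, 8.40 and 8.25 for pooled S-shaped bodies, 8.23, 8.34 and 8.72 for single S-shaped bodies and 3.15, 3.04 and 3.56 for collecting duct. Renal vesicles lay between the other groups without overlap, and replicate 3 was the highest of them. Nid1 was at least 3.38-fold higher in renal vesicles than in collecting duct (adjusted p = 5.11e-05), at least 13.7-fold in pooled S-shaped bodies (adjusted p = 8.77e-07) and at least 13.2-fold in single S-shaped bodies (adjusted p = 1.29e-05). Pooled S-shaped bodies were 4.07-fold above renal vesicles (log2 change 2.02 ± 0.33, adjusted p = 0.000827), the largest rise between the stages among the 10 genes' leading probe sets.

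The promoter window of Nid1 is shown as that of the gene with the largest rise between the stages by leading probe sets, from chr13:13437352-13437651 on the plus strand (RefSeq, GRCm38.p6), with CCAAT and GGGCGG on either strand in capitals.
Nid1: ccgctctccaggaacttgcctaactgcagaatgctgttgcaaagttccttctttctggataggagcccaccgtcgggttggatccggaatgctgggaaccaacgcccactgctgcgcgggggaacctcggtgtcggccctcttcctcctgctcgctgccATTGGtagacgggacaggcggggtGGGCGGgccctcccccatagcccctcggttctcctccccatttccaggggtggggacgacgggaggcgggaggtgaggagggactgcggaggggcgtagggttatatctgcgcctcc

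Nid2 was also higher in every nephron group than in collecting duct. It read 9.42, 8.73 and 8.97 for renal vesicles, 9.97, 9.71 and 9.63 for pooled S-shaped bodies, 9.92, 10.02 and 10.25 for single S-shaped bodies and 3.35, 3.52 and 2.85 for collecting duct. All nephron arrays stood far above all collecting duct arrays, by at least 20.2-fold in renal vesicles (adjusted p = 7.46e-08), 33.5-fold in pooled S-shaped bodies (adjusted p = 2.68e-08) and 41.1-fold in single S-shaped bodies (adjusted p = 1.78e-06). The stage difference of 0.73 ± 0.23 (adjusted p = 0.0314) did not pass without renal vesicle replicate 3 or 4, or without any 1 of the pooled S-shaped body replicates (0.57 to 0.80, adjusted p 0.0528 to 0.116). The suffix of the Nid2 probe set marks probes that can match more than 1 transcript.

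Of the laminin alpha chains, which carry the main cell-binding end of the trimer, Lama1 and Lama4 were lower and Lama5 was higher in pooled S-shaped bodies than in renal vesicles. Lama1 was highest in renal vesicles, at 8.68, 7.61 and 7.56, against 5.19, 6.25 and 5.82 for pooled S-shaped bodies, 4.69, 7.90 and 5.60 for single S-shaped bodies and 4.83, 2.85 and 4.12 for collecting duct. Apart from the single S-shaped bodies, no groups overlapped, whereas these spread widely and overlapped each of the others. Only 1 of 3 collecting duct arrays and 2 of 3 single S-shaped body arrays were above background. Lama1 was 16.2-fold higher in renal vesicles than in collecting duct (log2 change 4.02 ± 0.49, adjusted p = 0.000178) and called in 19 of 19 alternatives. Since only 1 collecting duct array was above background, the size of this fold depends on the pseudocount: the log2 change was 2.82 with a pseudocount equal to the median and 4.65 with 10% of the median.

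In pooled S-shaped bodies Lama1 was 3.53-fold above collecting duct (1.82 ± 0.49, adjusted p = 0.0133; 0.99 with a pseudocount equal to the median), though not called without pooled S-shaped body replicate 2 (1.57, adjusted p = 0.0549). It was 4.59-fold lower in pooled S-shaped bodies than in renal vesicles (log2 change -2.20 ± 0.49, adjusted p = 0.00501). Single S-shaped bodies did not pass against collecting duct (2.13 ± 0.83, adjusted p = 0.082), and did without single S-shaped body replicate 3 (2.82, adjusted p = 0.0336). The change was 1.22 without single S-shaped body replicate 4, the highest of its group.

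Lama4, by the brighter of its probe sets, 104587_at, was also highest in renal vesicles and lowest in collecting duct. It read 9.83, 9.92 and 9.87 for renal vesicles, 8.25, 8.30 and 9.09 for pooled and 7.51, 8.69 and 7.30 for single S-shaped bodies, and was at a signal of 0 on all 3 collecting duct arrays. Renal vesicles overlapped no other group, and pooled and single S-shaped bodies overlapped each other. The gene was at least 36.1-fold higher in renal vesicles than in collecting duct (adjusted p = 3.32e-08), at least 14.4-fold in pooled S-shaped bodies (adjusted p = 5.02e-08) and at least 8.75-fold in single S-shaped bodies (adjusted p = 8.17e-05). It was 2.51-fold lower in pooled S-shaped bodies than in renal vesicles (log2 change -1.33 ± 0.22, adjusted p = 0.000995).

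The other Lama4 probe set, 161793_at, did not show this. It read 3.99, 3.93 and 5.03 for renal vesicles, 3.29, 2.85 and 4.31 for pooled S-shaped bodies, 2.85, 5.85 and 3.80 for single S-shaped bodies and 4.79, 5.61 and 4.14 for collecting duct, and was above background on 1, 0, 1 and 2 arrays of these groups. All groups overlapped. Renal vesicles did not pass against collecting duct (log2 change -0.53 ± 0.49, adjusted p = 0.474), and pooled S-shaped bodies were called lower (at least 1.13-fold, adjusted p = 0.0481) in a call kept in 5 of 18 alternatives. It was lost without renal vesicle replicate 2 or 3, pooled S-shaped body replicate 1 or 2, or collecting duct replicate 1 or 2 (log2 change -1.39 to -0.98, adjusted p 0.0521 to 0.184).

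Lama5 was the one member lower in renal vesicles than in collecting duct, and both of its probe sets had that direction. Probe set 161702_f_at read 4.87, 6.89 and 5.48 for renal vesicles, 6.92, 7.10 and 6.89 for pooled S-shaped bodies, 7.92, 7.41 and 7.30 for single S-shaped bodies and 7.68, 7.23 and 7.99 for collecting duct. Probe set 99931_at read 2.85, 6.44 and 4.61 for renal vesicles, 7.28, 6.78 and 6.17 for pooled S-shaped bodies, 6.04, 2.85 and 6.49 for single S-shaped bodies and 8.28, 7.90 and 8.37 for collecting duct. On both, renal vesicle replicate 3 was the highest of its group and reached the range of the pooled S-shaped bodies, while all renal vesicle arrays stayed below all collecting duct arrays.

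Lama5 was 3.70-fold lower in renal vesicles than in collecting duct by 161702_f_at (log2 change -1.89 ± 0.42, adjusted p = 0.00793). By 99931_at it was 11.7-fold lower (-3.55 ± 0.68, adjusted p = 0.00356), or -2.66 without renal vesicle replicate 2, -4.45 without replicate 3 and -2.57 with a pseudocount equal to the median. Neither probe set passed between pooled S-shaped bodies and collecting duct (-0.67 ± 0.42, adjusted p = 0.243, and -1.44 ± 0.68, adjusted p = 0.124) in the 9-array fit. With only these groups in the fit both passed at the same change (adjusted p = 0.0333 and 0.00374), and 99931_at also passed without renal vesicle replicate 2 (adjusted p = 0.0259) or 3 (adjusted p = 0.0231).

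In pooled S-shaped bodies Lama5 was above renal vesicles by 1.22 ± 0.42 on 161702_f_at (adjusted p = 0.0415) and 2.11 ± 0.68 on 99931_at (adjusted p = 0.0321). These calls were fragile. For 161702_f_at the call was kept in 8 of 19 alternatives and lost when renal vesicle replicate 2 (0.78, adjusted p = 0.148) or 4, any 1 pooled S-shaped body replicate, or collecting duct replicate 1 or 3 was left out (1.09 to 1.26, adjusted p 0.0523 to 0.117). For 99931_at it was kept in 10 of 19, was 3.01 without renal vesicle replicate 3 and 1.31 with a pseudocount equal to the median, and was lost without renal vesicle replicate 2 (1.22, adjusted p = 0.0868) or 4, or pooled S-shaped body replicate 1 or 2 (1.84 to 2.10, adjusted p 0.0756 to 0.107).

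In single S-shaped bodies the Lama5 probe sets disagreed. Against collecting duct, 161702_f_at was -0.09 ± 0.27 (adjusted p = 0.815, 95% interval -0.72 to 0.53) and 99931_at was -3.05 ± 0.83 (adjusted p = 0.022), where single replicate 4 had a signal of 0. The change on 99931_at was -1.92 without single replicate 4, -3.73 without replicate 5 and -2.25 with a pseudocount equal to the median, and the call was lost without any 1 collecting duct array (adjusted p 0.062 to 0.0826). The suffix of 161702_f_at marks probes shared with other transcripts. The promoter window of Lama5 is shown as that of the only member called lower in renal vesicles than in collecting duct. It lies at chr2:180225810-180226109 on the minus strand (RefSeq, GRCm38.p6), with GGGCGG on either strand in capitals.
Lama5: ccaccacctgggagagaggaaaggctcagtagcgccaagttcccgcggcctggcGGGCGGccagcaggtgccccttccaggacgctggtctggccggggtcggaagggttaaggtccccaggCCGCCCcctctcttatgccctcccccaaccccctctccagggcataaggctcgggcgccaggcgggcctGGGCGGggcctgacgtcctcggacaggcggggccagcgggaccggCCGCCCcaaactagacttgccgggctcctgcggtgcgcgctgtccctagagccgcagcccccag
It held no CCAAT.

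The opposite courses of Lama1 and Lama5 can be put as 1 value per array, the log2 signal of Lama1 minus that of Lama5 (161702_f_at), of which only differences between groups are read, since levels of different probe sets are not comparable. It was 3.81, 0.72 and 2.08 for renal vesicles, -1.73, -0.85 and -1.06 for pooled S-shaped bodies, -3.22, 0.49 and -1.69 for single S-shaped bodies and -2.85, -4.38 and -3.87 for collecting duct. Leaving the single S-shaped bodies aside, the groups were fully separated, with renal vesicles high, collecting duct low and pooled S-shaped bodies between. This restates the courses of both genes and adds no test, since 3 arrays against 3 cannot give an exact permutation p under 0.1. The difference was 5.91 for renal vesicles minus collecting duct, or 6.65 without renal vesicle replicate 3 and 5.10 without replicate 2. For pooled S-shaped bodies minus renal vesicles it was -3.42, or -4.16 without renal vesicle replicate 3 and -2.61 without replicate 2. For pooled S-shaped bodies minus collecting duct it was 2.49, with 2.15 to 2.91 over the arrays left out. Single S-shaped bodies spread widely and overlapped the pooled S-shaped bodies and collecting duct.

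**Figure D2:**
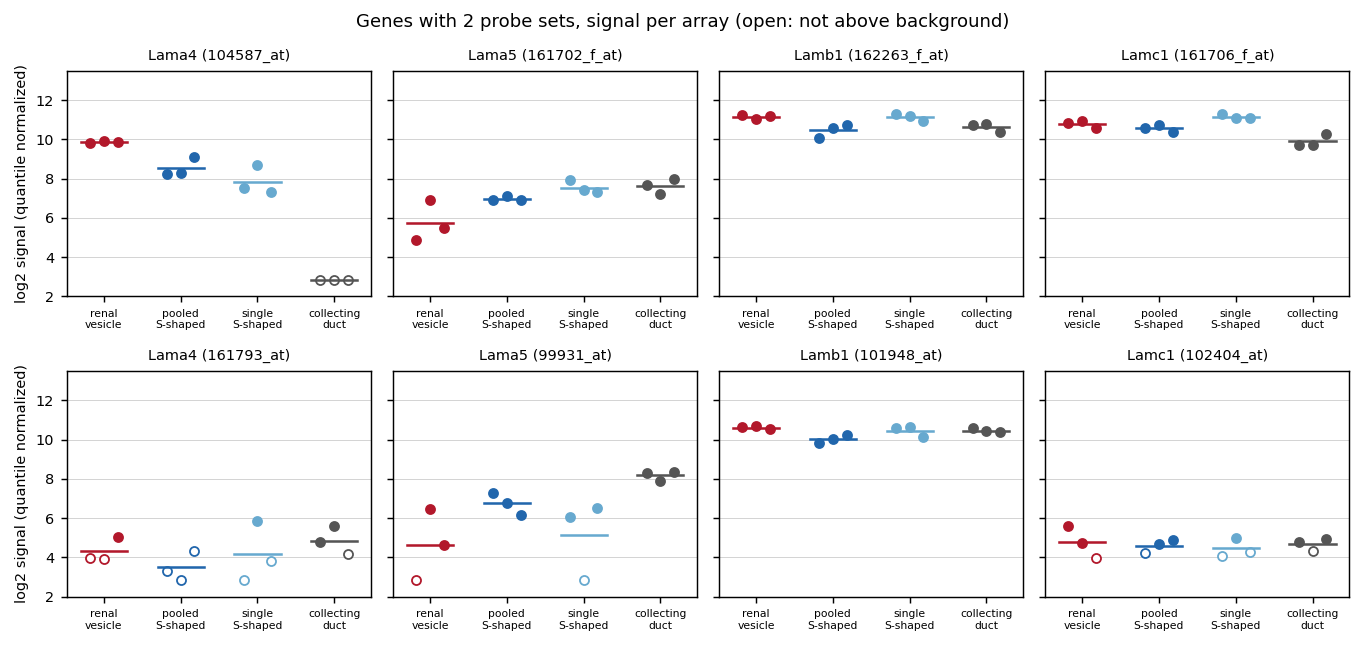
Log2 normalized signal on every array (vertical axis) for the 4 genes with 2 probe sets, the brighter one above and the other below, with groups, lines and open points as in the plot of all genes. The Lama5 and Lamb1 pairs share their main direction, whereas 161793_at of Lama4 and 102404_at of Lamc1 stay near background in all groups.

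Of the beta and gamma chains shared by most laminins, Lamb1 was lower in pooled S-shaped bodies than in renal vesicles, and Lamc1 was higher in all nephron groups than in collecting duct. Lamb1 on 162263_f_at read 11.22, 11.01 and 11.21 for renal vesicles, 10.09, 10.59 and 10.74 for pooled S-shaped bodies, 11.27, 11.20 and 10.91 for single S-shaped bodies and 10.72, 10.80 and 10.39 for collecting duct. Pooled S-shaped bodies were the low group and did not overlap renal vesicles. Single S-shaped bodies had a mean of 11.13 beside 11.15 for renal vesicles, and of 10.45 beside 10.61 on the other probe set, 101948_at. These 2 groups were not tested against each other. On 101948_at the values were 10.64, 10.67 and 10.53 for renal vesicles, 9.82, 10.05 and 10.22 for pooled S-shaped bodies, 10.60, 10.63 and 10.11 for single S-shaped bodies and 10.59, 10.42 and 10.38 for collecting duct.

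Both Lamb1 probe sets were lower in pooled S-shaped bodies than in renal vesicles, with a log2 change of -0.67 ± 0.17 (1.60-fold lower, adjusted p = 0.00903) on 162263_f_at and -0.58 ± 0.12 (1.49-fold lower, adjusted p = 0.00351) on 101948_at. Renal vesicles did not pass against collecting duct on 162263_f_at (0.51 ± 0.17, adjusted p = 0.0501) and passed with the same change without pooled S-shaped body replicate 1 (adjusted p = 0.0189) or 3 (adjusted p = 0.0425) in the fit. On 101948_at the change was 0.15 ± 0.12 (adjusted p = 0.4). With scaling to the 75th percentile both were called higher in renal vesicles (0.85, adjusted p = 0.00937, on 162263_f_at and 0.47, adjusted p = 0.0238, on 101948_at).

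Pooled S-shaped bodies were called lower than collecting duct on 101948_at (-0.43 ± 0.12, adjusted p = 0.0173), but not without pooled replicate 1 (-0.32, adjusted p = 0.0743) or collecting duct replicate 1 (-0.36, adjusted p = 0.0704), nor on 162263_f_at (-0.17 ± 0.17, adjusted p = 0.473). Single S-shaped bodies were called higher on 162263_f_at (0.49 ± 0.15, adjusted p = 0.0378) and not on 101948_at (-0.01 ± 0.16, adjusted p = 0.96). The call on 162263_f_at was lost without single replicate 3 or 4, or any 1 collecting duct array (0.37 to 0.57, adjusted p 0.0518 to 0.128). It rests on this probe set alone, whose suffix marks probes shared with other transcripts.

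Lamc1 on 161706_f_at read 10.81, 10.91 and 10.58 for renal vesicles, 10.59, 10.72 and 10.38 for pooled S-shaped bodies, 11.29, 11.07 and 11.09 for single S-shaped bodies and 9.71, 9.73 and 10.27 for collecting duct. All nephron arrays exceeded all collecting duct arrays, and single S-shaped bodies exceeded both other nephron groups. It was 1.82-fold higher in renal vesicles than in collecting duct (log2 change 0.87 ± 0.16, adjusted p = 0.0032), 1.58-fold in pooled S-shaped bodies (0.66 ± 0.16, adjusted p = 0.00835) and 2.37-fold in single S-shaped bodies (1.25 ± 0.17, adjusted p = 0.000936). The stage difference did not pass (-0.20 ± 0.16, adjusted p = 0.367, 95% interval -0.57 to 0.16), and was called lower in pooled S-shaped bodies with scaling to the 75th percentile (-0.51, adjusted p = 0.0397). The other probe set, 102404_at, read between 3.97 and 5.58 on every array, was above background on 7 of 12 arrays and was called in 0 comparisons (adjusted p 0.694 to 0.903). The Lamc1 calls above thus rest on 161706_f_at alone, whose suffix marks probes shared with other transcripts.

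Hspg2, the perlecan gene, was higher in both S-shaped body groups than in collecting duct and was not called in renal vesicles. It read 6.11, 5.72 and 6.10 for renal vesicles, 7.28, 6.91 and 6.68 for pooled S-shaped bodies, 8.34, 6.81 and 7.63 for single S-shaped bodies and 6.39, 5.27 and 5.74 for collecting duct. Renal vesicles lay within the range of collecting duct (log2 change 0.18 ± 0.30, adjusted p = 0.708, 95% interval -0.47 to 0.83), and both S-shaped body groups lay above it. Pooled S-shaped bodies were 2.23-fold above collecting duct (1.15 ± 0.30, adjusted p = 0.00985) and 1.97-fold above renal vesicles (0.98 ± 0.30, adjusted p = 0.0235).

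The stage difference of Hspg2 was not called without renal vesicle replicate 3 (0.85, adjusted p = 0.0683) or pooled S-shaped body replicate 1 (0.82, adjusted p = 0.0924) or 2 (1.00, adjusted p = 0.0559). Single S-shaped bodies were 3.47-fold above collecting duct (1.79 ± 0.44, adjusted p = 0.0141), a call lost without collecting duct replicate 2 (1.53, adjusted p = 0.0597) or 3 (1.77, adjusted p = 0.0551).

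**Figure D3:**
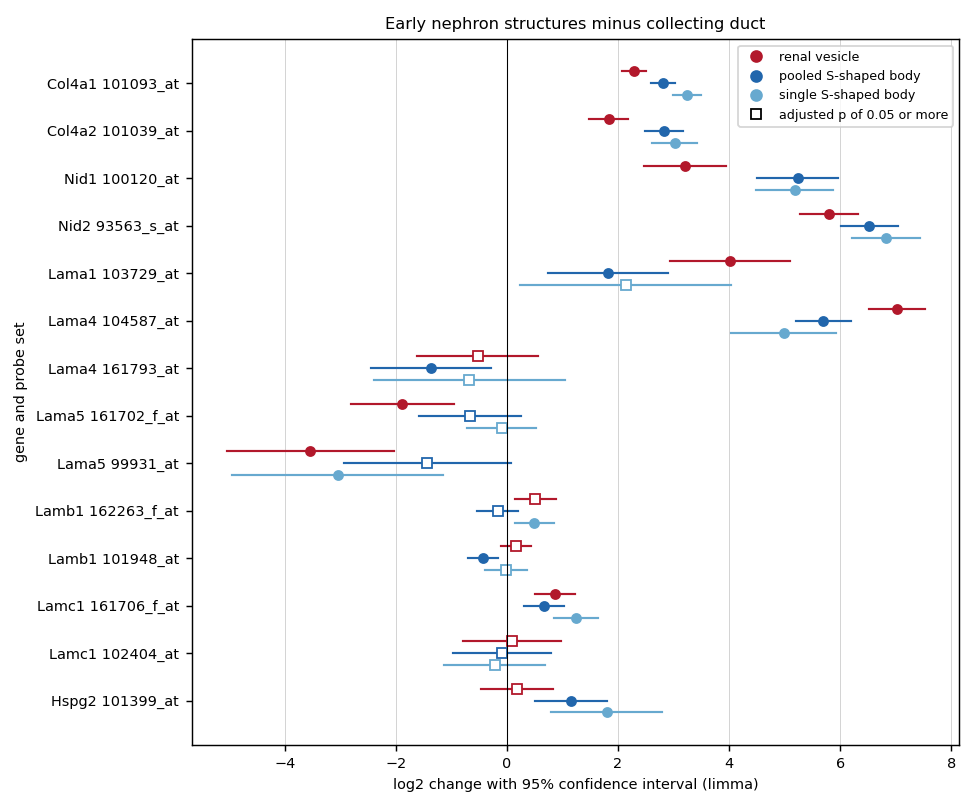
Log2 change against collecting duct with its 95% confidence interval (horizontal axis) for the 14 probe sets, for vesicles, pooled and single S-shaped bodies from top to bottom within each row, with open squares where the adjusted p was 0.05 or more. The changes of Nid1, Nid2 and Lama4 (104587_at) are fitted against a collecting duct signal not above background, for which the text gives bounds. The Lama5 changes lie left of 0. Their intervals cross 0 for both probe sets in pooled S-shaped bodies and for 161702_f_at in single ones.

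**Figure D4:**
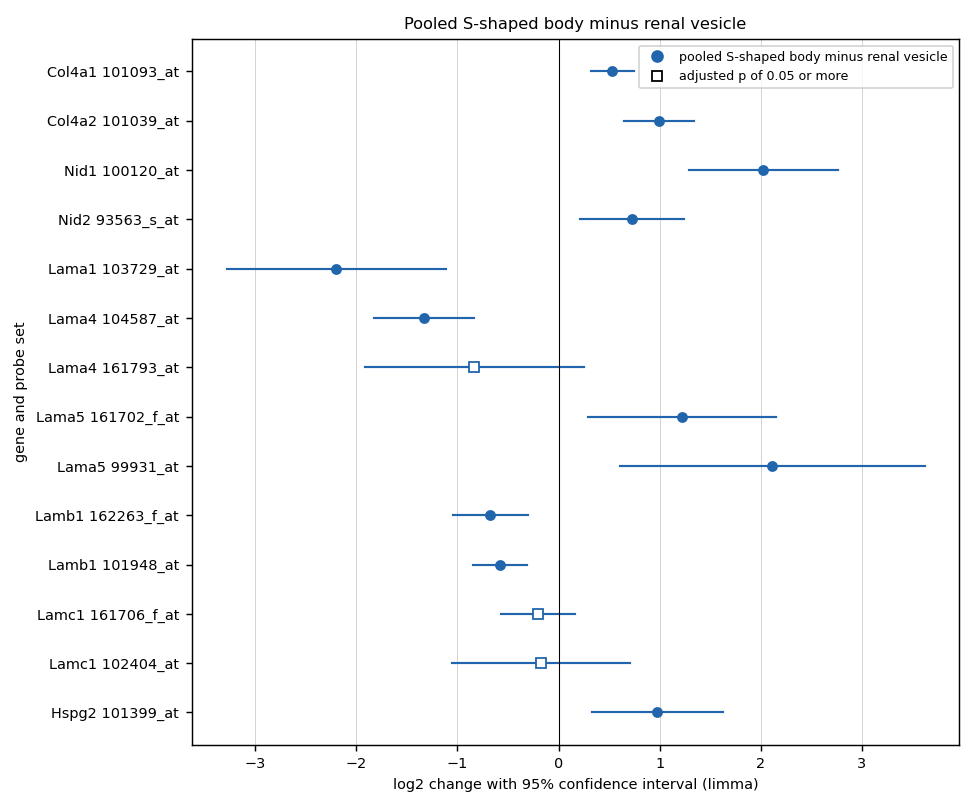
Log2 change of pooled S-shaped bodies minus renal vesicles with its 95% confidence interval (horizontal axis) for the 14 probe sets, with open squares where the adjusted p was 0.05 or more. Nid1 lies furthest right of the single-probe-set genes at 2.02, and Lama1 furthest left at -2.20.

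Single and pooled S-shaped bodies were compared to see how RNA amplified from 1 structure reads beside RNA from a pool. No member was called, as 0 of 14 probe sets passed in limma, where 0.397% of all probe sets were called (0.247% higher and 0.15% lower). Arrays were fully apart for 4 of the 10 genes, where this held for 25% of all probe sets. The median log2 change of the 10 genes was 0.37, beside -0.03 over all probe sets. The closest to a call were Col4a1, given above, and Lamc1 on 161706_f_at (0.59 ± 0.13, adjusted p = 0.0897). Lama1 had an interval of -1.39 to 2.02 and 99931_at of Lama5 one of -3.61 to 0.37, so differences of several-fold in these probe sets were not detectable with 3 arrays a group. With all 12 arrays in one fit 2 member probe sets were called higher in single S-shaped bodies, Col4a1 (adjusted p = 0.0293) and Lamb1 on 162263_f_at (adjusted p = 0.0471), and with scaling to the 75th percentile 3 were, these and Lamc1.

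On the scale as deposited, the median change of all probe sets was -1.39 for renal vesicles and -2.56 for single S-shaped bodies against collecting duct, -0.47 for pooled S-shaped bodies against collecting duct, 0.95 between pooled S-shaped bodies and renal vesicles and -2.20 between single and pooled S-shaped bodies. With this shift left in, 6 of the 39 called changes of member probe sets turned and 6 lost the call. Relative to the shift, all 39 kept their direction. Taking off the median is itself a normalization, so this is no independent check.

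Markers of other cell types moved with several of these results, and their part in the results was not tested. The summed signal of 14 endothelial markers was 1613, 3327 and 1614 for renal vesicles, 9668, 8381 and 8029 for pooled S-shaped bodies, 9720, 7400 and 9929 for single S-shaped bodies and 183, 250 and 249 for collecting duct. In collecting duct 10 of the 14, among them Pecam1, Cdh5, Kdr and Tek, were not above background on any array, and in renal vesicles Flt1 and Icam2 were not. Over the pooled S-shaped bodies, renal vesicles and collecting duct, the endothelial sum had the order of Col4a1, Col4a2, Nid1 and Nid2. The stromal and podocyte precursor sums, given below, had that order as well, so it is not particular to endothelium. The share of all probe sets with this order was not counted. Lama4 had another order, being highest in renal vesicles, where each of these sums was below both S-shaped body groups.

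The 12 stromal and mesangial markers summed to 396, 1870 and 932 for renal vesicles, 5723, 5469 and 4320 for pooled S-shaped bodies, 7761, 5968 and 7372 for single S-shaped bodies and 49.1, 86.1 and 50.5 for collecting duct. In collecting duct 10 of these 12 were not above background on any array, and in renal vesicles Pdgfrb was not. The 7 podocyte precursor markers summed to 1590, 5579 and 2417 for renal vesicles, 6975, 6866 and 6391 for pooled S-shaped bodies, 6403, 5884 and 7237 for single S-shaped bodies and 385, 322 and 347 for collecting duct. Renal vesicle replicate 3, the highest of its group in these sums, was also the highest renal vesicle array in Nid1, in Col4a2 and in both Lama5 probe sets. The same held for Lama4 on 104587_at, Lamb1 on 101948_at and Lamc1 on 161706_f_at. Replicate 3 was the lowest of its group in Nid2, Hspg2, Lamb1 on 162263_f_at and Lama4 on 161793_at. Of 8 early nephron markers tested, 6 were lower, the direction of Lama1, Lama4 and Lamb1, and 1 higher in pooled S-shaped bodies than in renal vesicles. Of all probe sets 19.2% were called lower and 17.6% higher there. The 7 macrophage markers summed to 148 or less on every array.

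**Figure D5:**
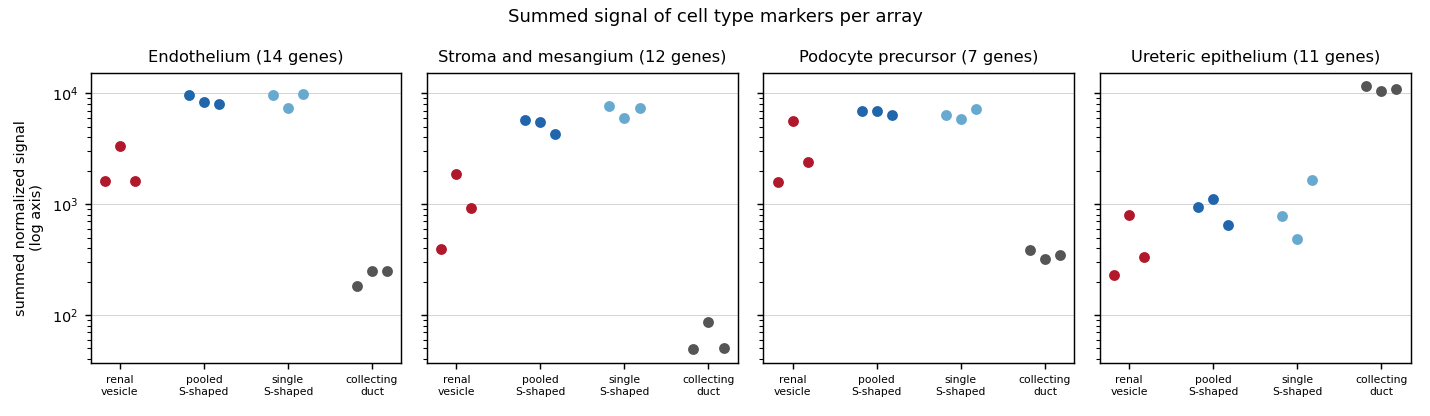
Summed normalized signal (vertical log axis) of the endothelial, stromal and mesangial, podocyte precursor and ureteric markers on every array, with vesicles, pooled and single S-shaped bodies and collecting duct from left to right. The first 3 sums are lowest in collecting duct and highest in the S-shaped bodies, and the ureteric sum is highest in collecting duct.

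Among the other basement membrane genes, 29 were listed and 17 tested, and in renal vesicles 2 were higher and 5 lower than in collecting duct (median log2 change -0.53, beside -0.02 over all probe sets). Over all probe sets 12.2% were called higher and 11.5% lower in this comparison. Lama3 and Lamb3, chains of the laminin that anchors stratified and ductal epithelia, were not above background in renal vesicles and at least 5.20-fold and 5.09-fold lower there than in collecting duct (adjusted p = 1.58e-05 and 2.03e-06). Bgn, the proteoglycan biglycan, and Fbln1, a fibulin, were higher in renal vesicles (log2 change 0.73 ± 0.23 and 0.69 ± 0.19).

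In pooled S-shaped bodies 2 of the 17 were higher than in collecting duct and 4 lower (median 0.05), beside 18.4% and 20.1% of all probe sets. Lamb3 was at least 4.69-fold lower (adjusted p = 1.16e-06) and Smoc2, a matricellular calcium-binding protein, at least 3.80-fold lower (adjusted p = 4.16e-05). Bgn (1.44 ± 0.23) and Col15a1, a vessel-associated collagen (1.24 ± 0.32), were higher. Against renal vesicles 6 were higher and 1, Fbln1, was lower (-0.90 ± 0.19, adjusted p = 0.00323), and the median was 0.71. Of all probe sets 17.6% were called higher and 19.2% lower between these stages. In single S-shaped bodies 2 were higher and 3 lower than in collecting duct, and of 16 tested 0 differed from pooled S-shaped bodies (limma adjusted p under 0.05). The shares over all probe sets were 15.9% and 17.7% against collecting duct, and 0.397% against pooled S-shaped bodies.

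Of 13 measured collagen synthesis and crosslinking genes, 5 were higher and 0 lower in renal vesicles than in collecting duct (median log2 change 0.46). In pooled S-shaped bodies 7 were higher and 0 lower than in collecting duct (median 0.62). Over all probe sets 12.2% were called higher and 11.5% lower in renal vesicles, and 18.4% and 20.1% in pooled S-shaped bodies. The lysyl oxidases Lox and Loxl1, which crosslink collagens, were not above background in collecting duct. In renal vesicles they were at least 2.42-fold (adjusted p = 0.000719) and 1.84-fold (adjusted p = 0.0015) higher, the second above background on 2 of 3 arrays. In pooled S-shaped bodies the bounds were 2.27-fold for Lox (adjusted p = 0.000446) and 2.88-fold for Loxl1 (adjusted p = 0.000169).

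Between the stages 3 of the 13 biosynthesis genes were higher and 2 lower in pooled S-shaped bodies than in renal vesicles. The shares over all probe sets were 17.6% and 19.2%. Mia3, which exports bulky collagens from the endoplasmic reticulum, was higher (0.88 ± 0.19, adjusted p = 0.00392), as was Crtap of the prolyl 3-hydroxylase complex (0.71 ± 0.24, adjusted p = 0.0381). The collagen chaperone Serpinh1 (-0.87 ± 0.31, adjusted p = 0.0473) and the general chaperone Hspa5 (-0.98 ± 0.20, adjusted p = 0.00338) were lower.

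Of 16 receptors and cell surface binders of this matrix, 2 were higher and 1 lower in renal vesicles than in collecting duct, where 12.2% and 11.5% of all probe sets were. In pooled S-shaped bodies 5 were higher and 3 lower than in collecting duct, where 18.4% and 20.1% of all probe sets were. The glypican Gpc3 was 2.39 ± 0.15 higher in renal vesicles on the log2 scale (adjusted p = 1.68e-06). Dag1, which encodes the laminin and perlecan receptor dystroglycan, was 1.50 ± 0.20 higher in pooled S-shaped bodies than in collecting duct (adjusted p = 0.000176) and 1.26 ± 0.20 higher than in renal vesicles (adjusted p = 0.000722). Itga7, an alpha subunit of a laminin-binding integrin, was higher in pooled S-shaped bodies than in renal vesicles (1.77 ± 0.41, adjusted p = 0.00577), where it was above background on 1 of 3 arrays. Ddr2, a collagen receptor, was the one list gene called between single and pooled S-shaped bodies. It was at least 6.01-fold higher in single ones (adjusted p = 0.0248) and not above background in pooled ones. Over all probe sets this comparison had 37 calls, or 1 to 62 with 1 array left out. The Ddr2 call was not checked by leaving out arrays.

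Of 12 tested matrix remodelling genes, 3 were higher and 2 lower in renal vesicles than in collecting duct, and 5 were higher and 2 lower in pooled S-shaped bodies. Between the stages 5 were higher and 0 lower in pooled S-shaped bodies than in renal vesicles (median log2 change 0.67). The shares higher and lower over all probe sets were 12.2% and 11.5%, 18.4% and 20.1%, and 17.6% and 19.2% in the same order. Timp3, a matrix-bound inhibitor of metalloproteinases, exceeded collecting duct by 3.81 ± 0.23 in renal vesicles (adjusted p = 1.1e-06) and by 4.95 ± 0.23 in pooled S-shaped bodies (adjusted p = 1e-07). Plat, the tissue plasminogen activator, exceeded it by 3.06 ± 0.42 in renal vesicles (adjusted p = 0.000423) and 4.68 ± 0.42 in pooled S-shaped bodies (adjusted p = 1.04e-05). Mmp14, a membrane-bound collagenase, was 1.43 ± 0.19 higher in pooled S-shaped bodies than in renal vesicles (adjusted p = 0.000253). Adamts1 and Adam10, metalloproteinases of other families, were lower in renal vesicles than in collecting duct (-1.82 ± 0.27 and -0.51 ± 0.16).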

How the data were processed

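The labels describe TRIzol extraction from 12 dissected kidney samples, 2 amplification rounds and hybridization to MG_U74Av2 arrays. In the deposited table each probe set has 1 intensity per array, on a linear scale that reaches below 0. The submitters' processing notes name GCOS. How probes were summarized and arrays scaled is not stated in them. Array medians differed by up to 17.8-fold as deposited, and 0 pairs of arrays were identical.

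The 66 control probe sets were dropped from the deposited intensity values, the 12 arrays were quantile normalized, negative values became 0, and log2 was taken after adding 7.22 (25% of the median). Probe sets in the lowest 25% by mean signal were left out, which left 9316. Tests used limma 3.58.1 (R 4.3.3), with eBayes fitted to the mean-variance trend, two-sided, and Benjamini-Hochberg adjustment over all probe sets. A 9-array fit served renal vesicles, collecting duct and pooled S-shaped bodies, and single S-shaped bodies were compared in fits of 6 arrays. Fits were tested on simulated data. A bound sets the bright group's mean against the higher of each array's lowest signal above background and the dim signal itself. The platform annotation supplied for the array gave 10833 probe sets 1 symbol, 396 several and 1193 none. Every member probe set is described, and from each gene list the text names at most 2 called genes in either direction, those that changed most. Members and lists were chosen with earlier results of these data known. Alternatives were other pseudocounts, scalings, filters and fits, a replicate block, and leaving out each array.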

Additional observations from a re-analysis of the deposited data

How the results depend on the processing

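Of 39 called changes of member probe sets, 38 kept direction and call with either other pseudocount, 36 with scaling to the 75th percentile, 35 with all 12 arrays in one fit, 34 without the mean-variance trend and 30 without a filter, and 38 of 38 that could be fitted kept them with a filter at the 50th percentile. With only the 2 groups compared in the fit, 27 of 30 did, and with the replicate block 24 of 30. On the deposited scale 27 of 39 kept both, 6 lost the call and 6 turned. Leaving out 1 array at a time kept 286 of 324 calls and turned none. In pooled S-shaped bodies against renal vesicles the count of called member probe sets, 11, was 7 without a filter and 7 to 11 with 1 array left out. For single against pooled S-shaped bodies the count of 0 became 12 on the deposited scale, 3 with scaling to the 75th percentile and 2 with all 12 arrays, and the 37 calls over all probe sets became 8298, 141 and 426 in the same order, or 1 to 62 with 1 array left out. The deposited scale gave 7254 calls (239 higher and 7015 lower) in place of 2213 (1140 and 1073) for renal vesicles against collecting duct, 5436 (5107 and 329) in place of 3422 (1636 and 1786) between pooled S-shaped bodies and renal vesicles, and 8259 (198 and 8061) in place of 3127 (1479 and 1648) for single S-shaped bodies against collecting duct. For pooled S-shaped bodies against collecting duct it gave 988 higher and 2967 lower, in place of 1711 and 1872. Its shift of the median of all probe sets is given with the results.

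On the deposited scale these changes had the opposite sign, of which the called ones were Lamc1 on 161706_f_at against collecting duct in renal vesicles and single S-shaped bodies, both Lamb1 probe sets between the stages, and Lamb1 on 162263_f_at and Hspg2 in single S-shaped bodies against collecting duct. For renal vesicles against collecting duct they were Lamb1 (-1.16 on 101948_at and -0.78 on 162263_f_at), Lamc1 (-1.19 on 102404_at and -0.46 on 161706_f_at) and Hspg2 (-1.33). Between pooled S-shaped bodies and renal vesicles they were Lamb1 (0.33 and 0.18) and Lamc1 (0.76 and 0.67). For single against pooled S-shaped bodies they were Col4a1 (-1.03), Col4a2 (-2.32), Nid2 (-2.25), Lama1 (-1.75), Lama4 on 161793_at (-0.27), Lama5 on 161702_f_at (-1.99), Lamb1 (-2.05 and -1.52), Lamc1 on 161706_f_at (-1.60) and Hspg2 (-1.94). For single S-shaped bodies against collecting duct they were Lamb1 on 162263_f_at (-2.12), Lamc1 on 161706_f_at (-1.39) and Hspg2 (-1.17). Scaling to the 75th percentile turned Lamb1 on 101948_at in the last comparison (0.28).

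With 1 array left out, only changes that were not called turned. Lamc1 on 102404_at ran from -0.32 to 0.48 for renal vesicles and -0.27 to 0.10 for pooled S-shaped bodies against collecting duct, -0.57 to 0.24 between these stages, and -0.42 to 0.041 for single against pooled S-shaped bodies. Hspg2 ran from -0.089 to 0.47 for renal vesicles against collecting duct, and Lamb1 on 162263_f_at from -0.30 to 0.025 for pooled S-shaped bodies against collecting duct. Nid1 ran from -0.20 to 0.11 and Lama1 from -0.60 to 1.00 for single against pooled S-shaped bodies. Lama5 on 161702_f_at ran from -0.30 to 0.082 and Lamb1 on 101948_at from -0.10 to 0.15 for single S-shaped bodies against collecting duct. The cause of these turns was not tested.

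No pairing of samples by the replicate numbers of the titles was seen, though 7 pairs are too few to exclude it. Deviations from group means correlated at -0.08 to 0.05 over 7 same-numbered pairs of arrays and -0.14 to 0.12 over 20 others. The replicate block gave 1372 calls for renal vesicles against collecting duct, 3343 for pooled S-shaped bodies against collecting duct and 2462 between the stages, with 9, 9 and 6 member probe sets called. Single S-shaped bodies share 1 number with each group they were compared with, so for them the replicate block was fitted with all 12 arrays, an alternative chosen after seeing the data. It gave 85 calls against pooled S-shaped bodies, 0 of them members, and 2764 against collecting duct with 8 member probe sets. It turned 4 changes that were not called: Lama4 on 161793_at (-0.072) and Lamc1 on 102404_at (0.10) against pooled S-shaped bodies, and Lamb1 on 101948_at (0.15) and Lamc1 on 102404_at (0.016) against collecting duct. Low signals, as of Nid1, Nid2 and Lama4 in collecting duct, limit folds to bounds. Fitted changes of these genes, of Lama1 and of Lama5 on 99931_at grew or shrank with the pseudocount.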

Other observations

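The genes whose pattern over the 12 arrays was most like that of 4 members were taken from 6757 genes by Pearson correlation of log2 signal. All points share the same 4 groups of arrays, so r reflects mainly the differences between groups and is a description. Nearest to Col4a1 were Pkdcc, a secreted kinase (r = 0.99), Aopep, an aminopeptidase (0.99), and Dnajb11, a chaperone of the endoplasmic reticulum (0.99). Nearest to Nid2 were the imprinted gene Mest (0.99), Degs1, a desaturase of ceramide synthesis (0.99), and Gas1, a hedgehog co-receptor (0.99). For Lama1 they were the protease gene Prss23 (0.93), the glucose 6-phosphate transporter gene Slc37a4 (0.93) and Tars2 (0.91), and for Lama5 Icmt (0.93), Hcfc1r1 (0.93) and Col18a1 (0.91), which encodes another basement membrane collagen.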
